A study of Mus musculus with 6 samples.

Results

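The comparison described here asks which messages differ after 12 h of TGF-β in A20 cells kept with SP600125. It sets 1 array, cells given TGF-β for 12 h together with SP600125, against 1 array of cells kept with SP600125 alone for 24 h. These are 2 of the 6 arrays of the study, and all 45101 probe sets of the array design were read on both. A20 is a B lymphoma line that came from a BALB/c mouse, so every array holds 1 cell line, grown in RPMI medium with fetal bovine serum. The other 4 conditions were untreated cells, cells with TGF-β for 12 h or for 24 h without drug, and cells with TGF-β and SP600125 for 24 h. The titles give DMSO for the 3 conditions without SP600125. Below, the array with SP600125 alone is called the drug-alone array, and the array with 12 h of TGF-β and SP600125 is called the stimulated array. Time with the drug was 24 h on the first and 12 h on the second, so the effect of TGF-β and that of the shorter exposure to the drug cannot be told apart in this pair. The labels give no dose for either agent and do not say whether the arrays came from separate cultures. There was 1 array per condition and no replicate, so the differences have no test and no error, and a gene is called only higher or lower.

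TGF-β is a secreted cytokine that brings a type II and a type I receptor kinase together on the cell surface. The type I receptor phosphorylates Smad2 and Smad3, which enter the nucleus with Smad4 and change transcription, and among the genes they induce are inhibitors of the pathway itself. The receptors also signal through the kinase TAK1 to the JNK and p38 kinases, and JNK phosphorylates Jun, a part of the AP-1 transcription factors. SP600125 is a small molecule that blocks the ATP site of the JNK kinases and is known to act on other kinases too. In B cells TGF-β is known for restraining growth and for its part in switching antibodies to IgA.

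Both arrays carried the message of B cells. Cd79b, a signalling chain of the B cell receptor, had a signal of 16567 on the drug-alone array and 15553 on the stimulated array, and Ms4a1, the CD20 antigen, had 7565 and 6915. Cd79a, Cd22, Blk and Pax5 were also above the floor, a signal of 74.2 explained below, on both arrays. Of the defining markers of other cells, those under the floor on both arrays were Cd3d, Cd3g and Ncr1 of T and NK cells, Cd14 of myeloid cells, Col1a1 and Pdgfra of fibroblasts, and Hba-a1 and Klf1 of erythroid cells. Above it on both were Zap70 of T cells with 372 and 423, the myeloid genes Csf1r with 277 and 406 and Adgre1 with 195 and 172, and Col1a2 of fibroblasts with 127 and 84.2. Cd3e, Lyz2, Mpo, Col3a1, Dcn, Gata1 and Pf4 were above it on 1 of the arrays, at 131 or less. Of the marker lists, 4 of 15 T and NK cell genes, 7 of 14 myeloid, 6 of 11 fibroblast and 5 of 9 erythroid and platelet genes were above the floor on at least 1 of the arrays. None of these was 2-fold apart, against 2.51% of all measured genes higher and 1.32% lower. The summed signal of the T and NK cell list was 935 on the drug-alone array and 947 on the stimulated one, that of the myeloid list 1186 and 1483, that of the fibroblast list 1014 and 754, and that of the erythroid and platelet list 658 and 845. Values are from whole cultures, where fewer cells that make a message and less message per cell cannot be told apart.

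Signals under 74.2, the median of all signals of the 6 arrays, were raised to that floor before the log2 ratio of the stimulated over the drug-alone array was taken. The actin 3′/5′ ratio was 1.51 on the drug-alone array and 1.32 on the stimulated array, and 10670 and 10873 genes were above the floor. The 18 probe sets for hybridisation spike-ins, bacterial transcripts added in the laboratory, were all higher on the stimulated array, by a log2 of 0.12 to 0.83 with a median of 0.32. Where a gene had several probe sets above the floor on both arrays, as 4613 genes did, their log2 ratios differed by a pooled SD of 0.33, which is a measure of probe set error within this pair and not of error between cultures.

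At 12 h, 292 of 11635 measured genes, 2.51%, were at least 2-fold higher on the stimulated array, and 154, 1.32%, were at least 2-fold lower. Over probe sets, 672 of 24751 measured were higher, 2.72%, and 332 lower, 1.34%. Here a measured gene is one above the floor on at least 1 of both arrays, represented by its brightest probe set. Most genes lay close to equality, with a median log2 ratio of 0.01 and 5697 genes, 49.0%, within 0.25 of 0. Differences of 4-fold or more were seen for 30 genes higher and 2 lower, so the upper tail was the longer one. Under scaling of the arrays to a common median the calls were 243 higher and 208 lower, which took the share of higher calls from 65.5% to 53.9%. The 2-fold limit cut through a dense range: 205 genes were between 1.8-fold and 2-fold higher and 99 between 2-fold and 2.2-fold, and on the lower side these numbers were 124 and 63. For 84 of the higher genes the drug-alone signal was at the floor, and for 39 of the lower genes the stimulated signal was, so that their folds are lower bounds, written below as "at least". Another probe set of the gene pointed the opposite way for 26 of the 124 higher genes that had one, and for 15 of 53 lower genes.

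**Figure D1:**
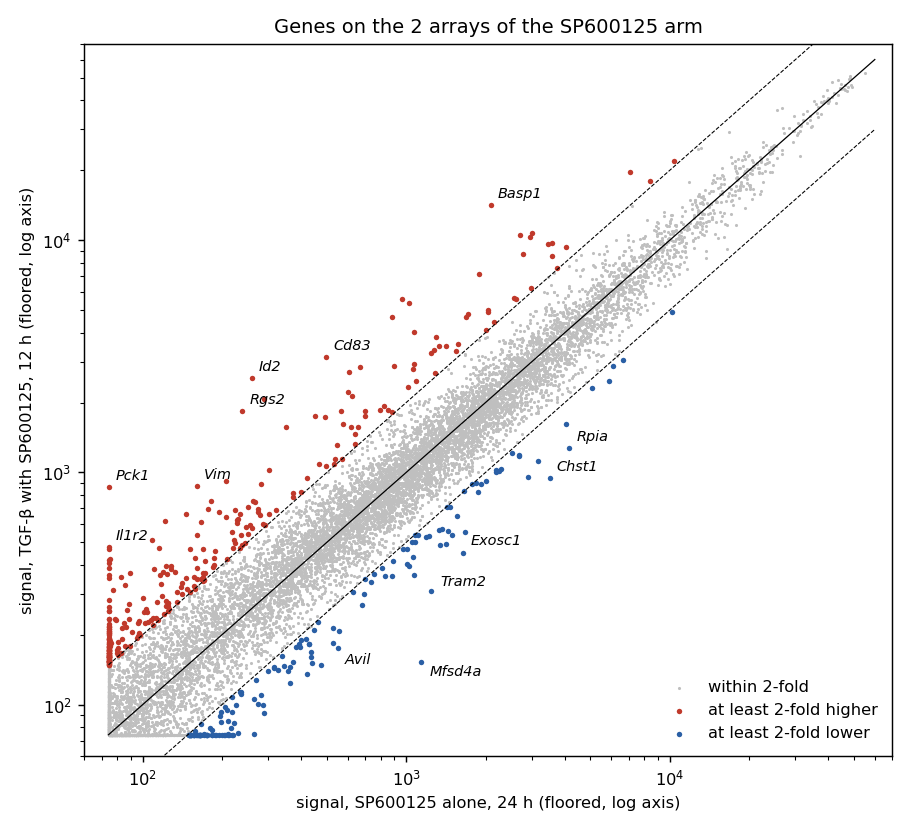
Signal of each measured gene on the drug-alone array (x) and on the stimulated array (y), both on log axes and raised to the floor of 74.2, 1 point a gene. Red points are the 292 genes at least 2-fold higher and blue points the 154 genes at least 2-fold lower; the solid line is equality and the dashed lines are 2-fold. Points stacked on the left and lower edges are genes at the floor on 1 array.

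No ligand, receptor or Smad of the TGF-β pathway was called 2-fold apart. Among all genes 2.51% were higher and 1.32% lower, so lists this short hold few calls or none. Tgfb1, the main ligand of lymphoid cells, had a signal of 980 on the drug-alone array and 1600 on the stimulated array, a log2 ratio of 0.71. Of the 6 measured genes for ligands and their latency proteins 0 were 2-fold apart, with a median log2 ratio of 0.04. Gdf11, a ligand related to the activins, had 135 and 41.7, under the floor, so its difference of at least 1.82-fold has no upper limit. Tgfbr1, the type I receptor, had 2031 and 3845, and its log2 ratio of 0.92 was the largest of the 8 measured receptor genes. The untreated array had less Tgfbr1, 1032, and the TGF-β array without drug had 5368, so in the arm without drug the same 12 h gave a log2 ratio of 2.38. Tgfbr2, the type II receptor, had 1413 and 2184, a log2 ratio of 0.63, against 1.16 without drug. The 4 measured Smads, Smad2, Smad3, Smad4 and Smad5, were all slightly lower, from -0.02 for Smad4 to -0.69 for Smad5, and some other probe sets of Smad2 and Smad5 lay above 0.

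Inhibitors of the pathway that Smads are known to induce were among the higher genes. Smad7, which blocks the type I receptor, had 121 on the drug-alone array and 619 on the stimulated array, a 5.11-fold difference that another of its probe sets gave as a log2 of 2.11. Skil, which encodes the corepressor SnoN, had 3568 and 9689, 2.71-fold. Ldlrad4, a membrane protein that keeps Smad2 and Smad3 from the receptor, had 119 and 371, 3.12-fold. Of 10 measured feedback inhibitors and corepressors these 3 were at least 2-fold higher, against 2.51% of all genes, and 0 lower, and the list had a median log2 ratio of 0.61 against 0.01 for all genes. Nedd4l, a ubiquitin ligase that acts on activated Smads, followed at 0.94 from 121 and 231. Smad7 and Skil had much the same level on the drug-alone and the untreated array (124 and 2987 on the latter), and in the arm without drug their log2 ratios were 1.97 and 1.86. Pmepa1, another feedback inhibitor, was at the floor in effect, with 38.2 and 74.3.

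Known targets of the pathway were led by the Id genes and Rgs2. Id2, which encodes a protein that binds E proteins and stops them from binding DNA, had 260 on the drug-alone array and 2556 on the stimulated array, 9.84-fold. Its other probe sets gave log2 ratios of 0.11 and 2.82. Id3, its close relative, had 607 and 2695, 4.44-fold, while Id1 was at or near the floor with 79.2 and 28.3. The untreated array had more of both, 481 for Id2 and 1039 for Id3, and the TGF-β array without drug had 2678 and 3174, so the levels reached after 12 h of TGF-β were alike with and without drug. The E proteins that Id proteins bind differed little: Tcf3 had a log2 ratio of 0.22, Tcf12 0.44 and Tcf4 -0.27. Rgs2, which shortens signalling through G proteins, had 239 and 1834, 7.68-fold, with other probe sets from 0.47 to 3.42.

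In all, 7 of 20 measured TGF-β target genes were at least 2-fold higher and 1 was lower, against 2.51% and 1.32% of all genes, with a median log2 ratio of 0.64. Beside Id2, Id3 and Rgs2 these were Jund, Spsb1, Cdkn2b and Klf10. Cdkn2b, the p15 inhibitor of cyclin-dependent kinases 4 and 6, had 291 and 593, 2.04-fold. The SP600125 arrays held less of it than their counterparts, which had 582 untreated and 1244 with TGF-β, and the log2 ratios of 1.03 and 1.10 were alike. Klf10, a Krüppel-like repressor first found as a TGF-β inducible gene, had 209 and 424, 2.03-fold. Spsb1, an adaptor of a ubiquitin ligase, was at the floor with 69.2 on the drug-alone array and at 170 on the stimulated one, at least 2.28-fold, and another probe set was at -0.09. Cdkn1a, the p21 inhibitor, was the lower one, with 462 and 228. Only 143 was measured for Cdkn1a on the untreated array, and 138 with 12 h of TGF-β alone, while 24 h of TGF-β with the drug gave 469, as high as the drug alone.

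The kinases of the JNK cascade were near equality. Mapk8 and Mapk9, the JNK1 and JNK2 genes, had log2 ratios of -0.11 and 0.12, Map2k4, which phosphorylates them, 0.00, and Map3k7, the TAK1 gene, 0.31. Of 13 measured cascade genes 1 was 2-fold higher, against 2.51% of all genes. It was Map3k12 with 574 and 1618, and another of its probe sets pointed the opposite way at -0.48. Averaged over its probe sets, its log2 ratio was 0.51, that of Jund 0.77 and that of Jun 0.91, all under 2-fold. Of 12 measured AP-1 genes 3 were higher, against 2.51% of all genes, and 0 lower. Jun had 71.7, under the floor, on the drug-alone array and 192 on the stimulated array, at least 2.58-fold, against 95.9 and 92.4 in the arm without drug. Fos had 125 and 266, 2.13-fold, against 259 and 293 without drug. Its log2 ratio was 0.85 with a pseudocount of 50 in place of the floor and 0.98 under quantile normalization, both under 2-fold. Both Fos values of the arm without drug and the stimulated array were thus alike, and the drug-alone array was the low one. Jund had 2768 and 8734, 3.16-fold, with another probe set at -0.12, and Junb had 569 and 994, a log2 ratio of 0.80.

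Among 18 immediate-early genes, which cells switch on without new protein, 2 were at least 2-fold higher and 1 lower. The shares of all genes were 2.51% and 1.32%. Egr2, a zinc finger factor, had 5.0 on the drug-alone array and 467 on the stimulated array, at least 6.29-fold, and 34.0 and 362 in the arm without drug. Nr4a1, an orphan nuclear receptor, had 125 and 275, 2.19-fold. Egr1 lay just inside the limit with 1888 and 3722, a log2 ratio of 0.98. Myc was the lower gene and is described with the growth genes. Of 13 phosphatases and other brakes of the MAP kinases 1 was higher, against 2.51% of all genes. It was Dusp6, which dephosphorylates ERK, with 1295 and 3829, 2.96-fold. Dusp4, a phosphatase of the same family, had 106 and 194 under the drug and 251 and 128 without it, log2 ratios of 0.87 and -0.97. A test of that difference was not possible with 1 array per condition.

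**Figure D2:**
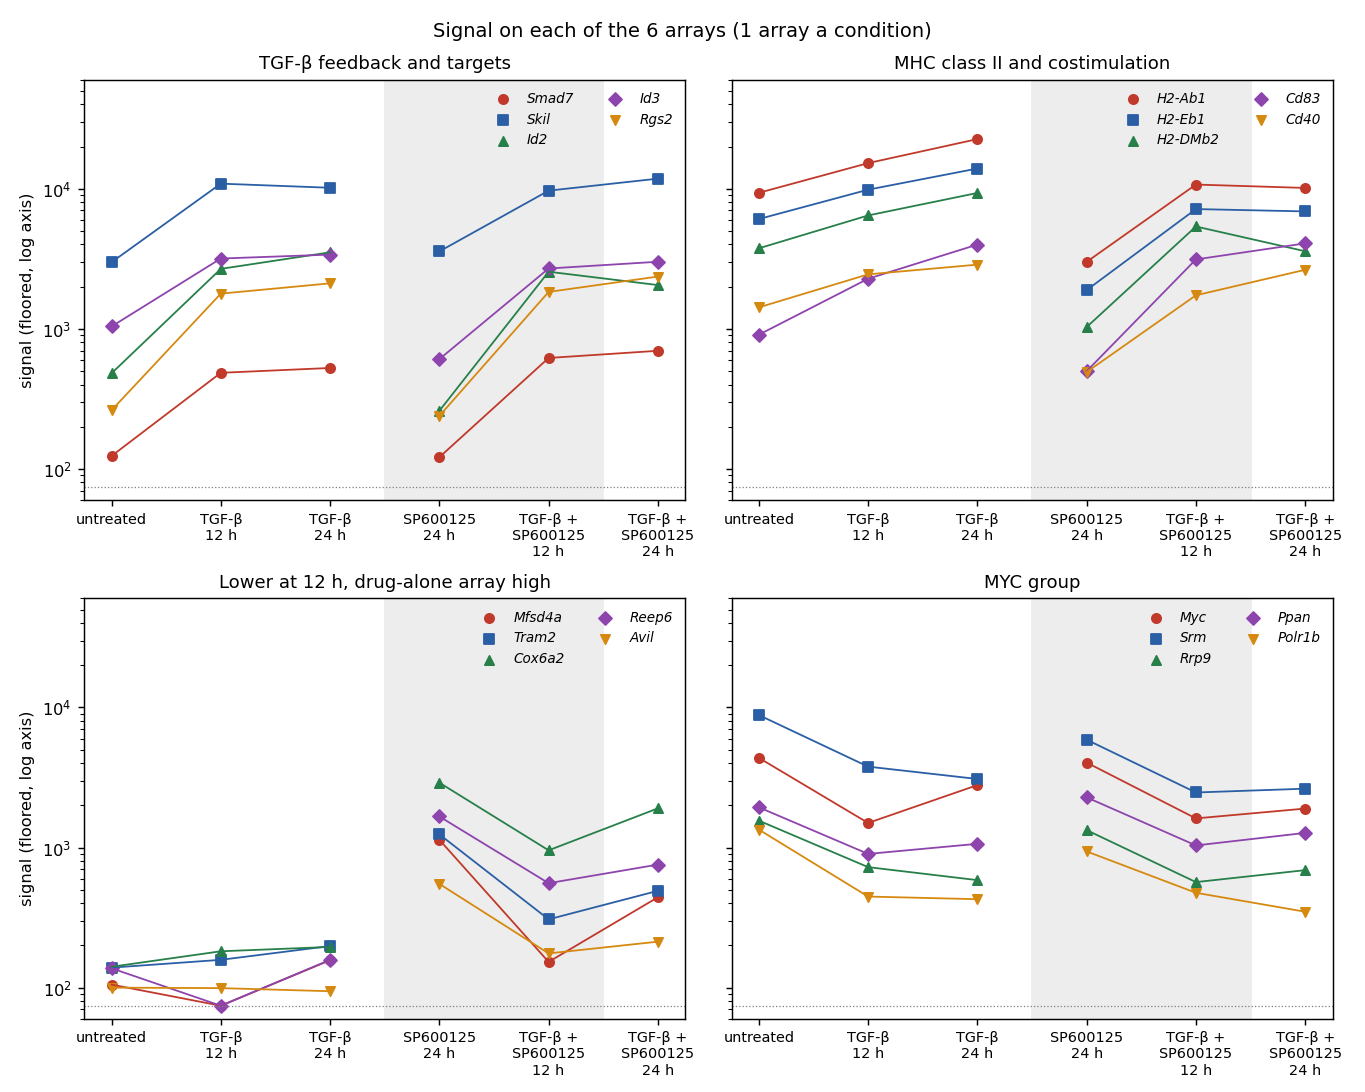
Signal of 20 genes on each of the 6 arrays, raised to the floor of 74.2 (dotted line), on a log axis; the shaded band holds the drug-alone and the stimulated array, and lines join arrays of 1 arm. Smad7, Id2, Id3, Rgs2 and Skil and the MHC class II genes were higher on the stimulated than on the drug-alone array; for Mfsd4a, Tram2, Cox6a2, Reep6 and Avil the drug-alone array was the highest of the 6; Myc and the genes of ribosome assembly were lower after TGF-β in both arms.

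Genes for antigen presentation on MHC class II formed the list with the largest median. These proteins carry peptides to helper T cells: the H2-A and H2-E dimers bind the peptide, Cd74 guards the groove, H2-DM and H2-O control loading, and the coactivator Ciita switches the genes on. All 13 measured genes were above 0 and 8 were at least 2-fold higher, against 2.51% of all genes, with a median log2 ratio of 1.39 against 0.01. H2-Ab1, the beta chain of H2-A, had 3005 on the drug-alone array and 10711 on the stimulated array, 3.56-fold. H2-Eb1, the beta chain of H2-E, had 1889 and 7158, 3.79-fold, and H2-DMb2, a chain of H2-DM, had 1028 and 5376, 5.23-fold. In the arm without drug the same genes started higher, at 9348, 6076 and 3755, and reached 15235, 9846 and 6446. The stimulated array thus lay between the untreated array and the TGF-β array without drug in each of the 3 genes.

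H2-Ob, a chain of H2-O, had another pattern, with 2714 and 10525 under the drug and 2189 and 8726 without it, and log2 ratios of 1.96 and 2.00. Ifi30, a lysosomal reductase that opens disulphide bonds of antigens, had 2945 and 10374, 3.52-fold. H2-Ea had 7059 and 19666 and H2-DMa 1329 and 3493. Ciita itself was dim, at 158 and 316, 2.01-fold, and its other probe set gave a log2 ratio of 1.83. H2-Oa at 0.97, H2-Aa at 0.92 and Cd74 at 0.81 were higher by less than 2-fold, and the proteases Lgmn at 0.26 and Ctss at 0.06 were close to equality. Over the list, the median log2 ratio was 0.70 for 12 h of TGF-β without drug and -0.79 for the drug-alone over the untreated array. This second value and the ratio of 1.39 use the same drug-alone array, so they are set side by side and not compared.

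Promoters of class II genes are known for a conserved row of boxes just before the start of transcription, of which the Y box is bound by the factor NF-Y. Windows of 250 bases before the start were found for 9 of the 13 genes in the RefSeq table of mouse assembly GRCm38.p6, 11 windows in all, and were searched on both strands for CTGATTGG, a core form of the Y box. It was found in 3 of the 11, 27.3%, against 3.83% of all 32851 windows and 5.02% of the windows of the 292 higher genes. It was as frequent, 26.9%, in the windows of the list of ATF4 and unfolded protein response genes described further below. No box was found in the windows of H2-DMb2, H2-Ob, Ifi30 and H2-DMa, all at least 2-fold higher, or in those of Lgmn and Ctss. The windows with the box are shown, those of H2-Eb1 with 1889 and 7158, H2-Aa with 13165 and 24867 and H2-Oa with 635 and 1240. Of these genes only H2-Eb1 was at least 2-fold higher. H2-Oa and H2-Aa fell just short of the limit, with log2 ratios of 0.97 and 0.92. Only the exact letters CTGATTGG were searched, so variant forms of the box were not counted. Whether the box goes with the calls was not tested. Each window shown reads 5′ to 3′ on the strand of the gene and ends at the base before the start. The capitals mark the box, which begins 62 bases before the start in H2-Eb1, 51 in H2-Aa and 46 in H2-Oa. These windows lie at chr17:34305617-34305866 on the plus strand, chr17:34287824-34288073 on the minus strand and chr17:34092129-34092378 on the plus strand. The match is one of letters, and binding was not measured. Other motifs were searched in the same way. The Smad motif CAGACA stood in 12.7% of the windows of higher genes and 13.6% of those of all measured genes, the GC-rich Smad site GGCGCC in 10.4% and 16.3%, and the AP-1 site TGANTCA, where N is any base, in 3.34% and 4.32%. The MYC E box CACGTG stood in 8.11% of the windows of the MYC and ribosome assembly list and in 8.34% of those of all measured genes.
H2-Eb1: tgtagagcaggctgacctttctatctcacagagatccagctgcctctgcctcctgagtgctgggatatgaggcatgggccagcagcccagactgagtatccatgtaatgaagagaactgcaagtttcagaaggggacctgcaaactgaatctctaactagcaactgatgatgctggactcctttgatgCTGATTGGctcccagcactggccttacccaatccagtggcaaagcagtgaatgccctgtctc
H2-Aa: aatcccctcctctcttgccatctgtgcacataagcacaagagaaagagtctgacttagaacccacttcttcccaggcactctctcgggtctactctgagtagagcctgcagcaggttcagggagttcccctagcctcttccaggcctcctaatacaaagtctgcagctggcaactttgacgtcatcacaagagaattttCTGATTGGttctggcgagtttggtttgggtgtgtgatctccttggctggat
H2-Oa: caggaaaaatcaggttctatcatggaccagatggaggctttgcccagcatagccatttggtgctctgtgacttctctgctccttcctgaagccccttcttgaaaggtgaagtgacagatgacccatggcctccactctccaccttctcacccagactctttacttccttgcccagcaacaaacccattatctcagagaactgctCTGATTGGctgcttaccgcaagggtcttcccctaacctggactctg

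Molecules with which B cells engage T cells were also among the higher genes. Cd83, a surface protein of activated B cells and dendritic cells that keeps class II on the membrane, had 498 on the drug-alone array and 3128 on the stimulated array, 6.28-fold. Without drug it had 907 and 2277, so the stimulated array was the higher of both at 12 h. Cd40, the receptor for T cell help, had 491 and 1734, 3.53-fold, and its other probe sets gave log2 ratios of 1.81 and 1.84. Icosl, the ligand of the T cell receptor ICOS, had 166 and 613, 3.68-fold, although its other probe set gave only 0.23. Cd86 was under the floor on the drug-alone array at 68.1 and had 233 on the stimulated one, at least 3.15-fold. Tnfrsf13b, the TACI receptor for BAFF and APRIL, had 2049 and 4988, 2.43-fold. These were 5 of 13 measured costimulation and TNF receptor genes, against 2.51% of all genes, with 0 lower and a list median of 0.62. On the untreated array Cd40 had 1422 and Icosl 587, close to or only a little under their stimulated levels.

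Identity genes of the B lineage lay within 2-fold. Of 24 measured, 0 were 2-fold apart in either direction, and the median log2 ratio was 0.29. Among all genes 2.51% were higher and 1.32% lower, so a list of this size holds few calls or none. Cd22, a lectin that damps the B cell receptor, had 615 and 1031, a log2 ratio of 0.75, and Ptpn6, the phosphatase SHP-1, had 2568 and 3964, 0.63. Blnk, an adaptor downstream of the receptor, was the lowest at -0.93, from 6192 to 3245. Among plasma cell and germinal centre genes 1 of 13 was at least 2-fold lower and 0 higher, against 1.32% and 2.51% of all genes. It was Irf4, a transcription factor of activated B cells and plasma cells. Irf4 had 356 and 139, 2.56-fold lower, against 262 and 433 without drug. Its other probe set gave -0.21. Xbp1, Bcl6 and Jchain had log2 ratios of 0.13, -0.30 and 0.42.

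Receptors that guide lymphocytes through tissue were partly higher, 4 of 11 against 2.51% of all genes, with 0 lower. S1pr1, with which lymphocytes follow sphingosine phosphate out of lymph nodes, had 231 and 627, 2.72-fold. Cxcr5, the receptor that leads B cells to follicles, had 229 and 604, 2.64-fold. Cxcr4, the receptor for CXCL12, was already high on the drug-alone array, 10381, and had 21890 on the stimulated array, 2.11-fold. Its untreated level was 3645 and TGF-β alone gave 15784, a log2 ratio of 2.11 against 1.08 under the drug. Ptgir, the prostacyclin receptor, had 78.3 and 234, 2.99-fold, while the arm without drug ran from 309 to 1108. The order of the 4 Ptgir values placed both SP600125 arrays below both arrays without drug.

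Of 14 measured genes of adhesion and the cytoskeleton 3 were at least 2-fold higher, against 2.51% of all genes, and 0 lower, and 13 were above 0. Vim, the intermediate filament vimentin, had 160 and 875, 5.46-fold, and its other probe sets gave log2 ratios of 1.68 and 2.14. Itga6, an integrin chain that binds laminin, had 259 and 575, 2.22-fold, and Selplg, the ligand of P-selectin, had 251 and 541, 2.16-fold. Basp1, a membrane protein of the cell cortex that is on no list, had 2091 and 14167, 6.78-fold. Without drug Basp1 had 6680 and 27049, so each SP600125 array was below its counterpart, and the log2 ratios were 2.76 with the drug and 2.02 without.

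Of 24 measured genes of the interferon-stimulated list 17 were above 0 and 7 below. Irf7, a master factor of the type I interferon response, had 194 and 676, 3.48-fold, and Irf9, a part of the factor ISGF3, had 266 and 744, 2.80-fold. Usp18, which removes the ubiquitin-like ISG15, was at least 2.18-fold higher, from 52.0 to 162, and Ifih1, a sensor of double-stranded RNA, was at the limit with 89.3 and 179. These 4 of 24 were higher and 1, Irf4, was lower, against 2.51% and 1.32% of all genes, and the list median was only 0.24. Irf4 is the factor of activated B cells and plasma cells described above. Averaged over its probe sets its log2 ratio was -0.79, under 2-fold. In the NF-κB list 2 of 16 were higher, Il10 with 121 and 245 and Nfkbie with 572 and 1146, the latter with another probe set at -0.07. Nfkbia, the inhibitor IκBα, followed with 7175 and 14029, a log2 ratio of 0.97, and 15 of the 16 genes were above 0, with a median of 0.19.

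Of cytokine receptors and SOCS genes 2 of 18 were higher and 0 lower, against 2.51% and 1.32% of all genes. Il1r2, a decoy receptor that binds interleukin 1 without signalling, had 10.2 on the drug-alone array and 477 on the stimulated array, at least 6.43-fold. It was as low untreated, 65.3, and reached 497 with TGF-β alone. Ifngr2, a chain of the interferon gamma receptor, had 373 and 816, 2.19-fold. Beyond Rgs2 none of the 9 measured RGS genes was 2-fold apart, and Rgs13, an RGS protein of germinal centre B cells, had 3553 and 6437, a log2 ratio of 0.86.

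The MYC and ribosome assembly list was the one that leaned lowest. Myc, the growth-promoting transcription factor that TGF-β is known to repress, had 4040 on the drug-alone array and 1613 on the stimulated array, 2.5-fold lower. Without drug it had 4365 and 1497, so the levels before and after TGF-β were alike in both arms. Srm, which makes spermidine and is a known MYC target, had 5883 and 2470, 2.38-fold lower. Rrp9, which helps to process ribosomal RNA, had 1331 and 566, 2.35-fold lower, and Ppan, an assembly factor of the large subunit, had 2280 and 1035, 2.2-fold lower. Polr1b, a subunit of RNA polymerase I, lay just inside the limit with 938 and 475. In all, 33 of 39 genes were below 0 and 5 were at least 2-fold lower, against 1.32% of all genes, with a median log2 ratio of -0.64 and of -0.71 without drug. The fifth was the dim gene Mycn, with 205 on the drug-alone array and 31.9, under the floor, on the stimulated one. The proteins of the finished ribosome lay at equality: 17 cytosolic ribosomal protein genes had a median of 0.00. Of them 0 were 2-fold apart, against 2.51% higher and 1.32% lower of all genes.

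Genes of the cell cycle were close to equality at 12 h. Of 40 genes of G1/S and DNA replication 0 were 2-fold apart, against 2.51% higher and 1.32% lower of all genes. Their median was -0.08, with a range from -0.64 for Rfc3, a loader of the replication clamp, to 0.64 for Ccnd1, cyclin D1. Among 39 genes of G2/M and mitosis 1 was lower, against 1.32% of all genes. It was Cdc25b, the phosphatase that activates CDK1, with 2679 and 1176, 2.28-fold. Its untreated level was 1005 and that with TGF-β alone 855, so the drug-alone array stood highest of the 6. Cdkn1b, the p27 inhibitor, had 1080 and 1985, a log2 ratio of 0.88, with 409 and 1258 in the arm without drug. Of 9 CDK inhibitors and pocket proteins 8 were above 0, with Cdkn2b higher and Cdkn1a lower by at least 2-fold.

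**Figure D3:**
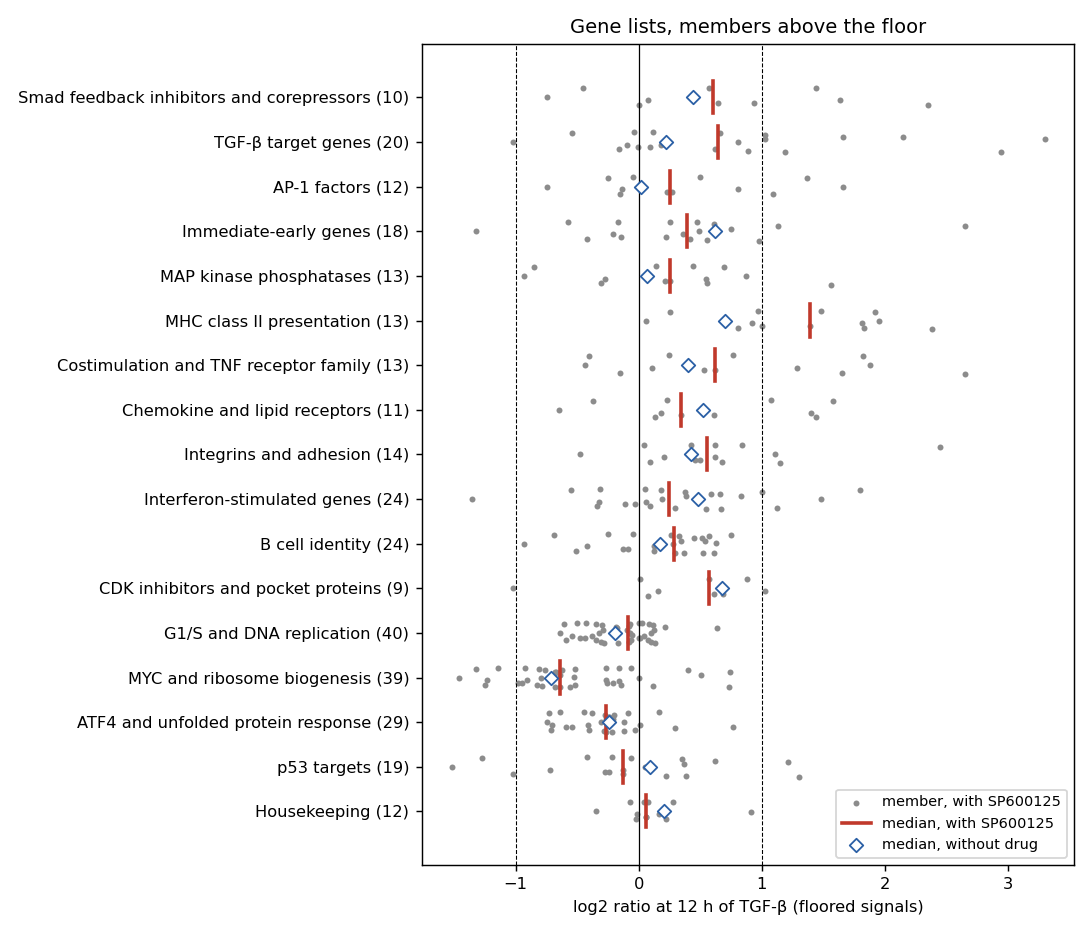
Log2 ratios of the measured members of 17 gene lists, 1 grey point a gene, with the list median under SP600125 as a red bar and the list median of the same comparison without drug as a blue diamond; numbers in brackets count the measured members and the dashed lines mark 2-fold. MHC class II presentation has the highest median, 1.39, and MYC and ribosome biogenesis the lowest, -0.64.

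Genes of survival and death were mostly near 0. Of 12 BCL-2 family genes 1 was higher, against 2.51% of all genes. It was Bmf, a protein that antagonises BCL-2, with 655 and 1564, and another of its probe sets pointed the opposite way at -1.22. Bcl2l11, which encodes Bim, had 23477 and 22359, a log2 ratio of -0.07, and Bbc3, which encodes Puma, had 1605 and 1473, -0.12. The drug-alone level of both was above the untreated level, 13428 and 380. Fas, a death receptor, had 273 and 673, 2.47-fold, from an untreated level of 658, and Casp6, an executioner caspase, had 257 and 595, 2.32-fold. These were 2 of 19 death receptor, caspase and inhibitor genes, against 2.51% of all genes, with 0 lower and a median of 0.32.

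The p53 target list held calls in both directions, 2 higher and 3 lower of 19 against 2.51% and 1.32% of all genes, with a median of -0.12. Gadd45a, a stress protein that acts on MAP kinase signalling and DNA repair, had 527 on the drug-alone array and 184 on the stimulated array, 2.87-fold lower. It had 199 untreated and 147 with TGF-β alone. Aen, an exonuclease induced in apoptosis, had 1561 and 648, 2.41-fold lower, and Cdkn1a was the third. Ccng2, an unusual cyclin found in arrested cells, was higher, with 4044 and 9373, 2.32-fold, much as without drug, 3579 and 8681. Fas was the other higher gene.

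The largest lower ratios follow, and since the drug-alone signal is their denominator, a ranking by ratio favours genes with a high signal there. Mfsd4a, a membrane transporter of the major facilitator family, led with 1136 on the drug-alone array and 153 on the stimulated array, 7.45-fold lower. It had 105 untreated, 7.0 with 12 h of TGF-β alone, 157 with 24 h of TGF-β alone, and 441 with 24 h of TGF-β and drug. Tram2, a protein of the translocon in the endoplasmic reticulum, had 1241 and 307, 4.04-fold lower. Its other 4 levels were 139 untreated, 158 and 198 with TGF-β alone, and 491 with 24 h of both. Cox6a2, a subunit of cytochrome oxidase known from heart and muscle, had 2903 and 955, 3.04-fold lower, with 141 untreated and 1904 after 24 h of both. Reep6, a protein that shapes the endoplasmic reticulum, had 1665 and 556, 2.99-fold lower, with 137 untreated and 755 after 24 h of both. For these 4 genes the drug-alone array was the highest of the 6 and the arrays without drug were all under 200, and the part of the drug time in the 12 h difference was not tested.

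Chst1 and Rpia were lower from high levels. Chst1, a sulphotransferase, had 3499 and 948, 3.69-fold lower, against 1537 and 976 without drug, and Rpia, an enzyme of the pentose phosphate pathway, had 4146 and 1273, 3.26-fold lower, against 1756 and 1238. For both, the drug-alone array was again the highest of the 6, and the stimulated array and the TGF-β array without drug were alike. Other genes of this end were lower in both arms. Exosc1, a part of the RNA exosome, had 1647 and 452 under the drug and 1784 and 631 without it, with log2 ratios of -1.87 and -1.5, and its other probe sets gave -0.98 and -0.67. Ppargc1b, a coactivator of mitochondrial genes, had 474 and 148, and 646 and 275 without drug. Mcoln2, a cation channel of endosomes, had 1073 and 362, and 677 and 281 without drug. Fgd2, an exchange factor for the GTPase Cdc42, had 420 and 136, and 754 and 301 without drug.

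The ATF4 and unfolded protein response list differed little between the 2 arrays, although it was higher on both than on the untreated array. It holds genes that cells switch on when amino acids run short or the endoplasmic reticulum is under stress. Of 29 measured genes 0 were 2-fold apart, against 2.51% higher and 1.32% lower of all genes. Of the 29, 25 were below 0 and the median log2 ratio was -0.27. The median over the untreated array was 1.16 for the drug-alone and 0.86 for the stimulated array. Cth, an enzyme of cysteine synthesis, had 13703 and 8401, a log2 ratio of -0.71, from 1558 untreated. Trib3, a pseudokinase induced by ATF4, had 3593 and 2380, -0.59, from 234 untreated. Atf5, a related transcription factor, had 2471 and 1509, -0.71, from 429 untreated. Chac1, which degrades glutathione, had 3779 and 3198, -0.24, from 696 untreated. In each of these 4 the stimulated array lay between the untreated and the drug-alone array. The parts of TGF-β and of the shorter time with the drug cannot be told apart in this pair.

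ATF4 binds a composite element whose core can be written TGATGNAA, where N is any base. The element was found on either strand in 6 of 26 promoter windows of the list, 23.1%, against 3.45% of all windows, 2.00% of those of measured genes and 3.66% of those of the 154 lower genes. Of the windows with a match, 2 are shown: that of Chac1, from the list, and that of Avil, an actin-binding protein on no list and one of the 15 largest lower ratios. Avil had 550 on the drug-alone array and 175 on the stimulated array, 3.14-fold lower, and 99.9 untreated. They are the 250 bases before the RefSeq start, at chr2:119350992-119351241 and chr10:127000459-127000708 of GRCm38.p6, both on the plus strand. Capitals mark the match, read on the opposite strand in Chac1, where it begins 193 bases before the start, and on the strand of the gene in Avil, where it begins 17 bases before. The match is a description of letters only.
Chac1: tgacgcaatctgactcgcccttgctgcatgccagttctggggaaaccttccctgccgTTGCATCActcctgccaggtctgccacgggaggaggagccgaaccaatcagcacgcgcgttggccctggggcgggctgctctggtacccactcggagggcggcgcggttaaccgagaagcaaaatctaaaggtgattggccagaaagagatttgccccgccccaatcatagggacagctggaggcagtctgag
Avil: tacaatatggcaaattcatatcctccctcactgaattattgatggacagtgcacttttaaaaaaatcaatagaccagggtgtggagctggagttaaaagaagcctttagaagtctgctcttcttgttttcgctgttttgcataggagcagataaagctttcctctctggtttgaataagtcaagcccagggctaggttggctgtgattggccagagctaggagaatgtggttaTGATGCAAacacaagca

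Lists of the secretory pathway and of lipid synthesis, had medians slightly above 0 at 12 h and below 0 for the drug-alone over the untreated array. Both values use the drug-alone array, so they stand side by side and are not compared. Of 22 chaperones of the endoplasmic reticulum 0 were 2-fold apart, against 2.51% higher and 1.32% lower of all genes. Their median was 0.15, with a drug-alone over untreated median of -0.59. Hsp90b1, the chaperone GRP94, had 4697 and 7518, a log2 ratio of 0.68, from 10543 untreated. The 30 genes of cholesterol and fatty acid metabolism had a median of 0.21 and a drug-alone over untreated median of -0.64. Of them 1 was higher, against 2.51% of all genes. Abca1, which exports cholesterol and is induced by the LXR receptors, was that gene, with 3586 and 8514, 2.37-fold, and 2417 and 6445 without drug. Hmgcs1, an early enzyme of cholesterol synthesis, had 5805 and 8974, from 13039 untreated.

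Several of the highest ratios belonged to genes on none of these lists. Pck1, the key enzyme of glucose synthesis, had 31.5 on the drug-alone array and 865 on the stimulated array, at least 11.7-fold, the largest ratio of the 15 named by size. Pck1 was under the floor untreated as well, 9.6, and had 936 with TGF-β alone. Slc38a6, an amino acid transporter, had 289 and 2069, 7.17-fold, and 283 and 985 without drug, and its other probe set gave a log2 ratio of 0.95. AW112010, a transcript induced by interferon and inflammation, had 963 and 5555, 5.77-fold, and 858 and 4696 without drug. Marchf1, a ubiquitin ligase that removes class II molecules and CD86 from the surface, had 75.0 and 424, 5.66-fold. Slc15a3, a peptide transporter of lysosomes, had 58.7 and 419, at least 5.64-fold, and Aif1, a calcium-binding protein of macrophages, had 50.0 and 406, at least 5.48-fold. Cpm, a membrane carboxypeptidase, had 886 and 4685, 5.29-fold, and Hey1, a repressor downstream of Notch, had 54.2 and 388, at least 5.23-fold. All 15 of these largest higher ratios, with Id2, Rgs2, Basp1, Il1r2, Egr2, Cd83 and Vim, were past 2-fold without drug too.

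The same 12 h without drug gave 386 higher genes, 3.38% of 11428 measured, and 171 lower, 1.5%. The 2 comparisons share no array. Of the genes measured in both, 115 were at least 2-fold higher in each, which is 39.4% of the genes higher under the drug and 29.8% of those higher without it. On the lower side 31 were shared, 20.1% and 18.1%. Differences of at least 2-fold in opposite directions were seen for 8 of the 10678 genes measured in both. How many such genes unrelated arms would give was not worked out. A further 38 of the 292 genes higher under the drug were within a log2 of 0.25 of 0 without it, and 26 of the 154 lower genes were. In the drug pair 49% of all measured genes lay that close to 0. That share was not counted for the pair without drug, so these counts do not mark genes that depend on the drug. Differences between the arms were not tested, since each ratio rests on 1 pair.

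**Figure D4:**
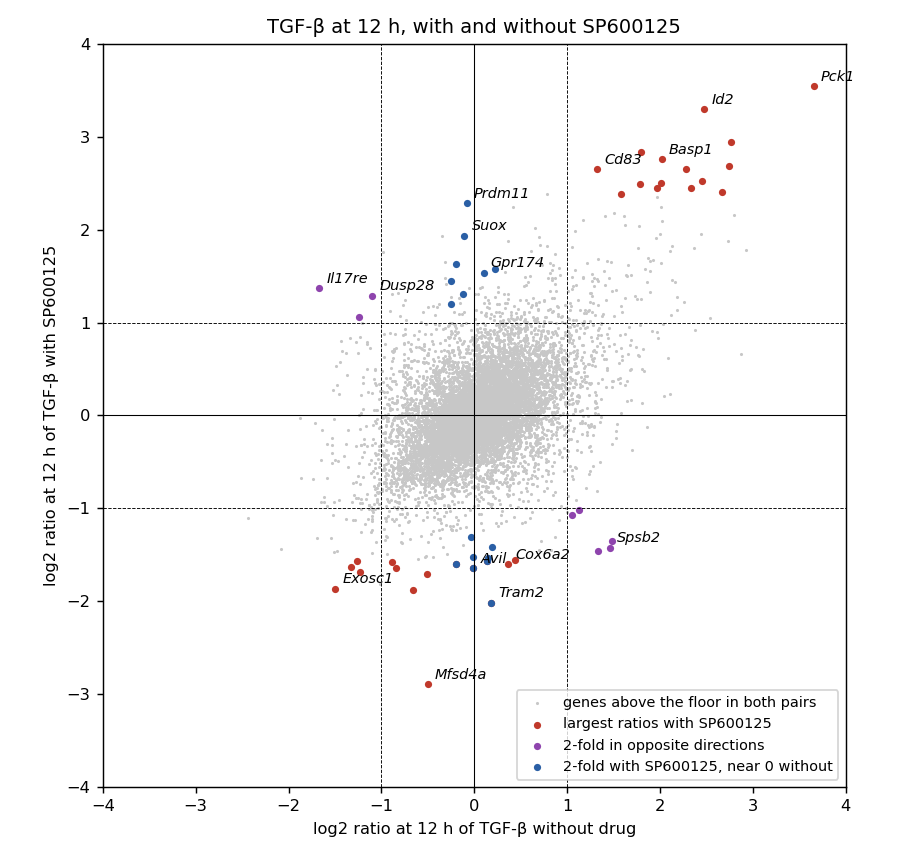
Log2 ratio at 12 h of TGF-β without drug (x) and with SP600125 (y) for the 10678 genes measured in both comparisons, 1 point a gene; dashed lines mark 2-fold. Red points are the largest ratios under the drug, purple points the 8 genes past 2-fold in opposite directions, and blue points the named genes past 2-fold under the drug and near 0 without it.

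The 8 named genes that were at least 2-fold higher under SP600125 and near 0 without it were dim, with signals of at most 222 on the drug-alone array. A choice by higher ratio favours such low drug-alone signals. Prdm11, a zinc finger factor of the PRDM family, had 63.4 on the drug-alone array and 362 on the stimulated one, at least 4.88-fold, against 425 and 402 without drug, and its other probe set gave -0.03. Gpr174, a receptor for lysophosphatidylserine on lymphocytes, had 42.7 and 215, at least 2.90-fold, against 320 and 343. Suox, the sulphite oxidase, had 85.9 and 328, 3.82-fold, against 186 and 173. Ppox, an enzyme of haem synthesis, had 102 and 251, 2.47-fold, against 242 and 222, and its other probe set gave 0.28. In Prdm11 and Gpr174 the stimulated array stayed under the untreated array, and in Ppox it was about level with it. Myzap, Gramd1b, Mettl14 and Dhrs3 completed the 8 named, at 3.10-fold, at least 2.74-fold, 2.30-fold and 2.99-fold. Averaged over their probe sets, the log2 ratio of Ppox was 0.79 and that of Gramd1b 0.79, under 2-fold.

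On the lower side the genes near 0 without drug included Tram2, Avil and others with a high drug-alone signal. A choice by lower ratio favours such genes. Tmtc1, a mannosyltransferase of the endoplasmic reticulum, had 439 and 152, 2.89-fold lower, against 107 and 119 without drug. Glt28d2, a glycosyltransferase domain protein, had 362 and 146, 2.48-fold lower, against 76.1 and 65.0. Megf6 had 223 and 83.4, 2.67-fold lower, against 91.6 and 104. Tbxa2r, the thromboxane receptor, differed from these, since its drug-alone level of 213 was like the untreated 205. It was under the floor on the stimulated array, at 37.6, at least 2.87-fold lower, and also with 24 h of TGF-β alone, at 56.0. It had 203 with 12 h of TGF-β alone and 174 with 24 h of TGF-β and drug.

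The remaining lists showed no 2-fold difference under the drug at 12 h, against 2.51% higher and 1.32% lower of all genes. These were glycolysis and hypoxia with 23 measured genes and a median of 0.03, heat shock chaperones with 15 and -0.13, the respiratory chain with 24 and 0.03, lysosome genes with 22 and 0.17, NRF2 and glutathione genes with 16 and -0.12, aryl hydrocarbon receptor targets with 5 and 0.47, and housekeeping genes with 12 and 0.06. Actb had 43543 on the drug-alone array and 48793 on the stimulated array, and Gapdh had 36402 and 37431, so both of these standard reference genes had log2 ratios within 0.25 of 0. Ctsl, a lysosomal protease, and Ctsh, another, were at the edges of the lysosome list with log2 ratios of -0.78 and 0.91.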

How the data were processed

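Messenger RNA of A20 cells was measured on 6 Affymetrix Mouse Genome 430 2.0 arrays, 1 per condition, and the titles gave the groups. The deposited values are 1 linear intensity per probe set and array, made by the authors with GCOS 1.2 per the submitters' processing notes, with settings not given in these sources. The 2% trimmed mean of the deposited intensities was 500 on the drug-alone and on the stimulated array, the mark of global scaling, so signals were used as deposited. The other columns were not checked in this way. Arrays have no read depth, and their number limits the precision.

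Of 45101 probe sets, 34958 had 1 gene symbol in the platform annotation, 932 several and 9211 were not listed. A gene was the probe set of 1 symbol with the highest mean over the 6 arrays, which gave 18194 genes. Signals were raised to a floor, the 50th percentile of all signals, and log2 ratios of the stimulated over the drug-alone array were taken in Python 3.11.15 with pandas 2.3.3 and numpy 2.4.6; a gene was called at 2-fold. A run on simulated data with large planted changes in bright probe sets checked the arithmetic only, and says nothing of the error of these arrays. No test was possible with 1 array a side.

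Named genes were the 15 largest ratios each way with a signal of at least 200 and no probe set of opposite sign, list members, and genes that differed between arms. Members and the 42 gene lists were chosen with earlier results of these data known. Alternatives were the floor at the 25th or 75th percentile, median scaling, quantile normalization, a pseudocount of 50 in place of the floor, and the mean of all probe sets. Sequences are from RefSeq.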

Additional observations from a re-analysis of the deposited data

Results flagged for a closer look

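The 8 genes below, of 10678 measured in both arms, were at least 2-fold apart in opposite directions with and without SP600125 at 12 h of TGF-β. The differences were not tested, and all signals on the 4 arrays concerned were below 300. In the SP600125 arm 7 of the 8 touched the floor on 1 array, so that those ratios are bounds. Without drug the ratios of Il17re, Mycn, Wbp2nl, Spsb2, Slc5a2 and Trpc7 are bounds too. Il17re, a chain of an interleukin 17 receptor, had a log2 ratio of 1.37 with the drug and -1.67 without, from signals of 38.9 and 192 against 236 and 45.8. Dusp28, a phosphatase of the dual-specificity family, had 1.29 and -1.10, and the transcript 1600012P17Rik had 1.06 and -1.24. In the other direction Mycn, a relative of Myc, had -1.46 and 1.34, and Wbp2nl had -1.35 and 1.48. Spsb2 had -1.42 and 1.46, and Slc5a2, a sodium-glucose transporter, -1.02 and 1.12, each with another probe set that pointed the opposite way. Trpc7, a cation channel, had -1.08 and 1.05. In all 5 genes of this second group the untreated signal was under the floor while the drug-alone signal was above it.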

How the results depend on the processing

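The number of calls depended on the floor. With the floor at the 25th percentile the calls were 1554 higher and 1147 lower genes, and 4019 and 3021 probe sets; at the 75th percentile, which left 6925 genes to compare, 75 and 50 genes, and 146 and 79 probe sets. A pseudocount of 50 in place of the floor gave 416 higher and 249 lower genes and 558 lower probe sets. Quantile normalization gave 247 and 193 genes, and the mean of all probe sets 247 and 118. Median scaling moved the median of all genes by -0.08. Of 249 alternative values of the 42 list medians, 247 stayed within the SD between probe sets of a gene; the ligand list moved to 0.71 with the floor at the 75th percentile and the chemokine and lipid receptor list to 1.07 with the pseudocount. For 102 genes past 2-fold, 0 of 576 alternative values reversed and 67 were under 2-fold. With the floor at the 75th percentile only 66 of the 102 had a value, and 24 of these were under 2-fold. The genes without a value there are not counted among the 576. With the pseudocount 14 were under 2-fold, among them Fos, Jun, Nr4a1, Selplg and Cdkn1a, and under quantile normalization 8, among them Fos. Under median scaling Cdkn2b, Klf10, Ciita, Cxcr4, Ifih1, Il10 and Nfkbie were under 2-fold, from 0.92 to 0.99, and averaged over the probe sets of a gene also Spsb1 at 0.55, Nfkbie at 0.47, Bmf at 0.02, Ifngr2 at 0.92, Irf4 at -0.79 and Aen at -0.93. No paired analysis was possible because each condition had 1 array and the labels give no replicate numbers. Dim genes are limited by signal over background, and a ratio from 1 pair has no error.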

Other observations

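The genes in this section were chosen after their values were seen. The proteins that bind class II promoters beside Ciita differed in 1 subunit. Rfxank, a subunit of the RFX complex, had a signal of 207 on the drug-alone array and 642 on the stimulated array, 3.11-fold, and its other probe sets gave log2 ratios of 0.97 and 1.06. Without drug Rfxank had 439 and 772. The other subunits were near equality, with log2 ratios of 0.11 for Rfx5 and 0.01 for Rfxap. The genes of NF-Y, which binds the Y box, were also near it, with 0.09 for Nfya, -0.35 for Nfyb and -0.24 for Nfyc.

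Single interferon-inducible genes outside the list of 24, picked because they were at least 2-fold higher, were the following. Samd9l, an antiviral and growth-restraining protein, had 206 and 916, 4.44-fold, and Eif2ak2, the kinase PKR that senses double-stranded RNA, had 250 and 709, 2.83-fold. Xaf1, a promoter of apoptosis, had 87.1 and 257, 2.95-fold. The TRIM genes Trim30a, Trim34a and Trim12c, which lie close together on chromosome 7, had 2.75-fold, at least 2.94-fold and 2.4-fold differences, with log2 ratios of 0.84, 1.40 and 0.86 without drug. A form of the interferon response element, a pair of GAAA runs parted by 2 bases, stood in 4.35% of the 299 promoter windows of higher genes, in 0.61% of the 164 of lower genes and in 2.98% of all windows and 2.37% of those of measured genes, searched on both strands.

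Single genes known from B cell signalling were picked in the same way. Of the 24 measured B cell identity genes 0 were 2-fold apart, against 2.51% higher and 1.32% lower of all genes. Inpp5d, the phosphatase SHIP1 that damps the B cell receptor, had 1413 and 3516, 2.49-fold, and Klhl6, an adaptor needed for germinal centres, had 2620 and 5580, 2.13-fold. Fcmr, the receptor for IgM, had 2145 and 4459, 2.08-fold. Without drug Inpp5d had 2189 and 5175, Klhl6 7019 and 10179 and Fcmr 4061 and 5757. The stimulated level of Klhl6 was thus under the untreated one, and that of Fcmr was only a little above it. Nab2, a corepressor of the Egr factors, had 76.9 and 312, 4.06-fold, against 231 and 364 without drug.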
